A study of Mus musculus with 10 samples.

Results

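The genes described here are 8 markers of the medium spiny neurons of the striatum, the projection neurons that make up most of that brain region, among 54532 genes counted in each library. They were chosen by name, as known markers of these neurons, and each symbol matched 1 Ensembl identifier of the count files. Drd1 and Tac1 mark the direct pathway, Drd2, Adora2a and Penk mark the indirect pathway, and Ppp1r1b, Rgs9 and Adcy5 are used by both. The study removed Mphosph8, which encodes a component of the HUSH silencing complex, or Morc2a, which encodes an ATPase that works with that complex, from the nervous system of mice. RNA sequencing was carried out on NeuN+ nuclei sorted from whole brains of adult C57BL/6J mice, and the libraries used here are all 10 of the series.

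Control replicates 1, 2 and 3 were Mphosph8fl/fl without Nestin-Cre, and control replicates 4 and 5 were Morc2afl/fl without Nestin-Cre. The 3 Mphosph8Δ/Δn libraries came from Mphosph8fl/fl mice with Nestin-Cre, and the 2 Morc2aΔ/Δn libraries from Morc2afl/fl mice with Nestin-Cre. All 10 libraries therefore carry a floxed allele, and all 5 knockout libraries but no control carry the Cre transgene, so an effect of Cre itself cannot be told apart from the loss of the gene. Nestin-Cre acts in neural precursors and is not restricted to the striatum. Each floxed allele goes back to targeted embryonic stem cells, the Mphosph8 allele to 1 clone.

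Medium spiny neurons are inhibitory neurons that receive cortical and thalamic input and dopamine from the midbrain, and their firing controls movement and the learning of habits. Neurons of the direct pathway carry the D1 dopamine receptor, which stimulates cyclic AMP synthesis, and release substance P. Neurons of the indirect pathway carry the D2 dopamine receptor, which inhibits that synthesis, together with an adenosine receptor encoded by Adora2a, which stimulates it, and release enkephalin. In both, cyclic AMP activates protein kinase A, whose striatal substrate DARPP-32 then inhibits protein phosphatase 1.

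The libraries held between 6686038 and 10764555 counted reads. The counts of the targeted genes cover all exons, while Cre removes the fourth, and per the methods the transcript left is open to nonsense-mediated decay. Mphosph8 stood at 18.8 to 37.2 counts per 1000000 reads (CPM) in Mphosph8Δ/Δn and at 32.2 to 49.0 CPM in the controls, and Morc2a at 215 to 223 CPM in Morc2aΔ/Δn and at 122 to 163 CPM in the controls. Morc2a was thus higher, not lower, in the libraries labelled Morc2aΔ/Δn (log2 fold change 0.64, adjusted p = 0.092 by edgeR), which goes against loss of the transcript, and the Mphosph8 ranges overlapped. The loss of either gene is therefore not seen in these counts, the genotypes named below rest on the labels, every direction included, and the reason was not tested. The study did verify the loss of each gene by quantitative PCR and immunoblots of whole brains, which are other measures than counts over all exons. It also measured both transcripts by quantitative PCR in sorted NeuN+ nuclei of controls and both knockouts, the material of these libraries. The summed level of 8 markers of cerebellar granule cells was 81.4 to 131 CPM in 7 libraries but 569 CPM in control replicate 4, 330 CPM in Mphosph8Δ/Δn replicate 1 and 500.1 CPM in Mphosph8Δ/Δn replicate 2. These 3 libraries stand apart, and the members, their ratios and the main list of related genes are also given without them.

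CPM below are scaled by the trimmed mean of M-values (TMM). Fold changes are log2 values of edgeR's quasi-likelihood test, and adjusted p stands for its p-value after Benjamini-Hochberg adjustment over 18573 genes tested. A call required both a fold above 2 and an adjusted p below 0.05. No member was called in Mphosph8Δ/Δn, where 0.0969% of all genes tested were, or in Morc2aΔ/Δn, where 0.0592% were. At an unadjusted p below 0.05 the counts of members were 0 of 7 in Mphosph8Δ/Δn, where 5.67% of all genes passed, and 2 of 7 in Morc2aΔ/Δn, where 10.7% passed. DESeq2, which called 0.247% and 0.589% of the genes it tested in Mphosph8Δ/Δn and Morc2aΔ/Δn, and limma-voom, which called 0.102% and 0.0861%, called no member. Since whole brains were sorted, fewer medium spiny neurons in a library and less of a transcript per neuron cannot be told apart in any value below. Reads from other neurons that express a marker, such as dopamine neurons for Drd2, cannot be separated either.

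Drd1, the D1 receptor gene, lies on chromosome 13 from 54051183 to 54055705 on the minus strand (GRCm38). It stood at 75.8, 67.7, 70.0, 74.6 and 66.7 CPM in control replicates 1 to 5, at 55.9, 68.8 and 53.1 CPM in Mphosph8Δ/Δn and at 73.2 and 51.8 CPM in Morc2aΔ/Δn. Mphosph8Δ/Δn replicates 1 and 3 and Morc2aΔ/Δn replicate 2 lay below every control, and the other 2 knockout libraries lay within the control range. On the log2 scale the fold change was -0.26 ± 0.16 (SE, n = 3 against 5 libraries) with a 95% interval of -0.59 to 0.07 in Mphosph8Δ/Δn, and -0.18 ± 0.18 (SE, n = 2 against 5) with an interval of -0.56 to 0.19 in Morc2aΔ/Δn. The adjusted p of edgeR's test was 0.938 and 0.782, and neither was called.

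Tac1 encodes the precursor of substance P and neurokinin A, the peptides that direct pathway neurons release, and lies on chromosome 6 from 7554879 to 7565834 on the plus strand. Its level was 136, 173, 146, 128 and 127 CPM in the controls, 139, 127 and 122 CPM in Mphosph8Δ/Δn and 132 and 87.4 CPM in Morc2aΔ/Δn. The Mphosph8Δ/Δn libraries overlapped the controls, while Morc2aΔ/Δn replicate 2 was the lowest of all 10. In Mphosph8Δ/Δn the log2 fold change was -0.14 ± 0.15 (SE), with an interval of -0.45 to 0.18. In Morc2aΔ/Δn it was -0.38 ± 0.17 (SE), with an interval of -0.74 to -0.01, an unadjusted p of 0.045 and an adjusted p of 0.451, so it was not called by edgeR's test. Without Morc2aΔ/Δn replicate 2 the value was -0.11.

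Drd2, the D2 receptor gene, lies on chromosome 9 from 49340627 to 49408177 on the plus strand. It stood at 21.4, 22.6, 30.2, 40.8 and 23.0 CPM in the controls, at 20.9, 20.5 and 17.3 CPM in Mphosph8Δ/Δn and at 21.5 and 19.3 CPM in Morc2aΔ/Δn. All 3 Mphosph8Δ/Δn libraries lay below all 5 controls, by a narrow margin, and Morc2aΔ/Δn replicate 1 lay just above the lowest control. Control replicate 4, the highest of all, is one of the libraries rich in granule cell markers. The log2 fold change in Mphosph8Δ/Δn was -0.50 ± 0.24 (SE), with an interval of -1.01 to 0.01 and an adjusted p of 0.894 by edgeR's test, and was -0.31 without control replicate 4. In Morc2aΔ/Δn it was -0.44 ± 0.28 (SE), with an interval of -1.03 to 0.15 and an adjusted p of 0.623, and was -0.26 without control replicate 4. Drd2 was also the member that varied most among the controls after Adora2a, with a coefficient of variation of 29.4%, against 5.50% to 13.4% for the other 6 members tested.

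Penk encodes preproenkephalin, the precursor of the enkephalins of indirect pathway neurons, and lies on chromosome 4 from 4133531 to 4138819 on the minus strand. Its level was 866, 1069, 877, 965 and 938 CPM in the controls, 703, 852 and 838 CPM in Mphosph8Δ/Δn and 833 and 598 CPM in Morc2aΔ/Δn. Every one of the 5 knockout libraries lay below every one of the 5 controls, which 0.431% of all genes tested did (80 genes). The gap was small, from 852 CPM in the highest knockout library to 866 CPM in the lowest control. In Mphosph8Δ/Δn the log2 fold change was -0.24 ± 0.12 (SE), with an interval of -0.49 to 0.01, an unadjusted p of 0.056 and an adjusted p of 0.894. In Morc2aΔ/Δn it was -0.40 ± 0.14 (SE), with an interval of -0.69 to -0.11, an unadjusted p of 0.0094 and an adjusted p of 0.296, the lowest of the members in either edgeR comparison. It was -0.19 without Morc2aΔ/Δn replicate 2, and across all alternatives for both knockouts Penk stayed below 0 without being called. Of its exonic bases, 14.3% are shared with A830012C17Rik, a noncoding gene on the opposite strand, which had 5 to 14 counts in each library against at least 5785 for Penk.

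Adora2a, the gene of that adenosine receptor and a standard marker of indirect pathway neurons, was close to 0 throughout. It lies on chromosome 10 from 75316877 to 75334784 on the plus strand, and no other gene shares its exons. It had 2, 0, 12, 2 and 3 reads in control replicates 1 to 5, 1, 4 and 3 reads in Mphosph8Δ/Δn and 1 and 3 reads in Morc2aΔ/Δn. At most 1.12 CPM were reached, in control replicate 3. The limit that a count of 0 allows, 3 reads, corresponds to 0.281 to 0.446 CPM in these libraries, counting error alone considered. The gene was removed by the filter on low counts, so the main fits gave no fold change. Whether the gene model used in counting captures its transcripts was not tested, so these counts may not stand for the level of the gene. The label of these genes as markers of both pathways is therefore seen for the indirect pathway in Drd2 and Penk alone. Gpr6, an orphan receptor gene of the same neurons, was by contrast at 34.9 to 90.6 CPM in the 10 libraries, and Chrm4, the muscarinic M4 receptor gene of direct pathway neurons, was at 0.414 to 3.42 CPM.

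**Figure D1:**
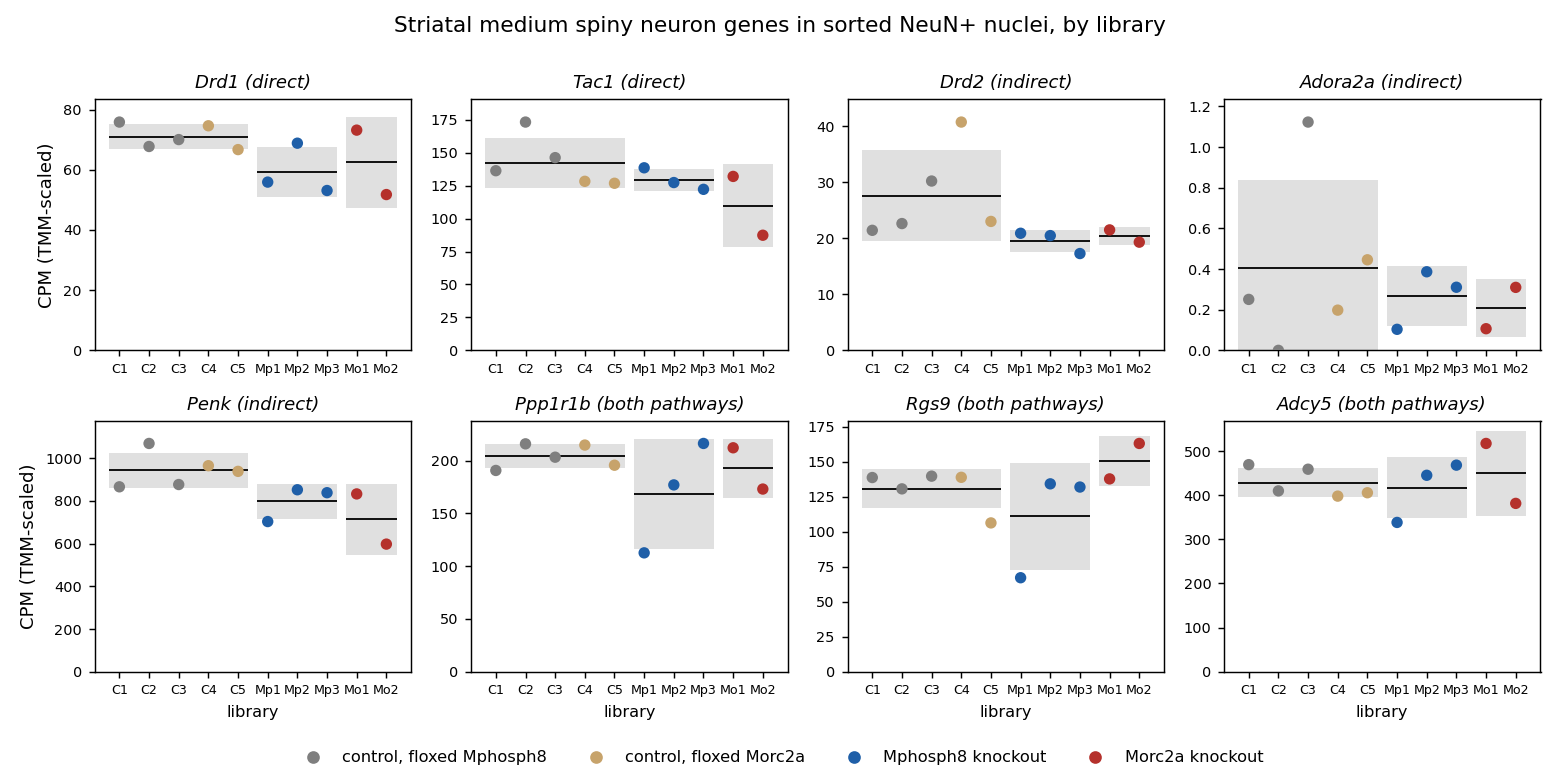
Level of the 8 genes in TMM-scaled CPM (vertical axis, from 0) in each of the 10 libraries (horizontal axis: C, control; Mp, Mphosph8Δ/Δn; Mo, Morc2aΔ/Δn). Points are libraries, black lines group means and grey bands 1 SD; Penk is below the lowest control (866 CPM) in all 5 knockout libraries, Ppp1r1b and Rgs9 are far lower in Mphosph8Δ/Δn replicate 1 than in its group's other libraries, and Adora2a stays near 0.

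Start regions were available for 5 of the 8 genes, Drd1, Drd2, Tac1, Rgs9 and Adcy5. Those of the pathway genes are shown because they show both dopamine receptor genes and the peptide gene of the direct pathway. The 250 bases before the start site of RefSeq (build GRCm38.p6) are written 5′ to 3′ on the strand of the gene, for Drd1 at chr13:54055659-54055908 on the minus strand before the more upstream of 2 starts, for Tac1 at chr6:7554811-7555060 and for Drd2 at chr9:49340153-49340402, both on the plus strand. Capitals mark the half-site of the cyclic AMP response element, TGACG, and the GC box, GGGCGG, searched on both strands.
Drd1: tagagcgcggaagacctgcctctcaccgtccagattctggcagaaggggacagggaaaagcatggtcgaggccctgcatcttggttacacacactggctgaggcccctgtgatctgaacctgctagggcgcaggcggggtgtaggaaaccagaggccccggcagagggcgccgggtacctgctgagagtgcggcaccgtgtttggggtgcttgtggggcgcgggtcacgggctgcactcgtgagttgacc
Tac1: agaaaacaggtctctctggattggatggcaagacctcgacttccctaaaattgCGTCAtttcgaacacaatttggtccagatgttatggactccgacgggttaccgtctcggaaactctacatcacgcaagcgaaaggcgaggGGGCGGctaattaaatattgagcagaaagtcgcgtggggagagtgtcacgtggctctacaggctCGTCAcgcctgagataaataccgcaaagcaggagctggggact
Drd2: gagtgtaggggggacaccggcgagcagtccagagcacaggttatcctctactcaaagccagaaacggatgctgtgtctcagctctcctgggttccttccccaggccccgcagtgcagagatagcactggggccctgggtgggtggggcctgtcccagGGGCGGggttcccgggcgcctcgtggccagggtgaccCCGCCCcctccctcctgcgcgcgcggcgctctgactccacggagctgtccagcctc
The Tac1 region held 2 half-sites, 197 and 43 bases before the start, and 1 GC box. The Drd2 region held 2 GC boxes, 93 and 56 bases before the start, and no half-site, and the Drd1 region held neither. Of 32851 regions of the same length in the mouse table, 17.8% held TGACG and 32.7% held GGGCGG. The 3 sequences differ in base composition, with G and C making up 64.0% of Drd1, 68.8% of Drd2 and 51.2% of Tac1, against a median of 52.4% over all regions. A match describes the letters and not the binding of a factor. These RefSeq starts differ from the gene limits given above. The Drd1 and Tac1 regions reach into those limits, the latter with its GC box and the half-site 43 bases before the start. The Drd2 region ends before the gene limit.

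Direct and indirect pathway genes were then set against each other within each library, which removes any shared change. The log2 ratio of summed CPM, Drd1 and Tac1 over Drd2, Adora2a and Penk, was -2.06, -2.18, -2.07, -2.31 and -2.31 in the controls, -1.90, -2.15 and -2.29 in Mphosph8Δ/Δn and -2.06 and -2.15 in Morc2aΔ/Δn. Values below 0 reflect Penk, which alone took most of the reads of the 5 genes. The means were -2.19 ± 0.12 (SD, n = 5) in the controls, -2.11 ± 0.20 (SD, n = 3) in Mphosph8Δ/Δn and -2.10 ± 0.06 (SD, n = 2) in Morc2aΔ/Δn, and both differences from the controls, 0.07 and 0.08, were smaller than the SD of the controls. The lowest ratios of all were those of the Morc2afl/fl controls, and both Morc2aΔ/Δn libraries lay above them. Against the Mphosph8fl/fl controls, which averaged -2.10 ± 0.06 (SD, n = 3), Mphosph8Δ/Δn lay on both sides. Without the 3 libraries rich in granule cell markers, the 1 Mphosph8Δ/Δn library left was 0.13 below the mean of the 4 controls left, -2.16 ± 0.12 (SD), and Morc2aΔ/Δn was 0.053 above it.

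The log2 ratio of Drd1 to Drd2 was 1.82, 1.58, 1.21, 0.87 and 1.53 in the controls, 1.42, 1.75 and 1.62 in Mphosph8Δ/Δn and 1.77 and 1.42 in Morc2aΔ/Δn. All 5 knockout libraries lay within the control range. The mean was 0.19 above that of the controls in each knockout, against a control SD of 0.37. Read counts thus gave 1.83 to 3.54 Drd1 reads for each Drd2 read in the controls and 2.67 to 3.40 in the knockouts, before any correction for length. Without the 3 libraries rich in granule cell markers the differences were 0.082 in Mphosph8Δ/Δn and 0.056 in Morc2aΔ/Δn, against a control SD of 0.25. No test was run on these ratios.

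**Figure D2:**
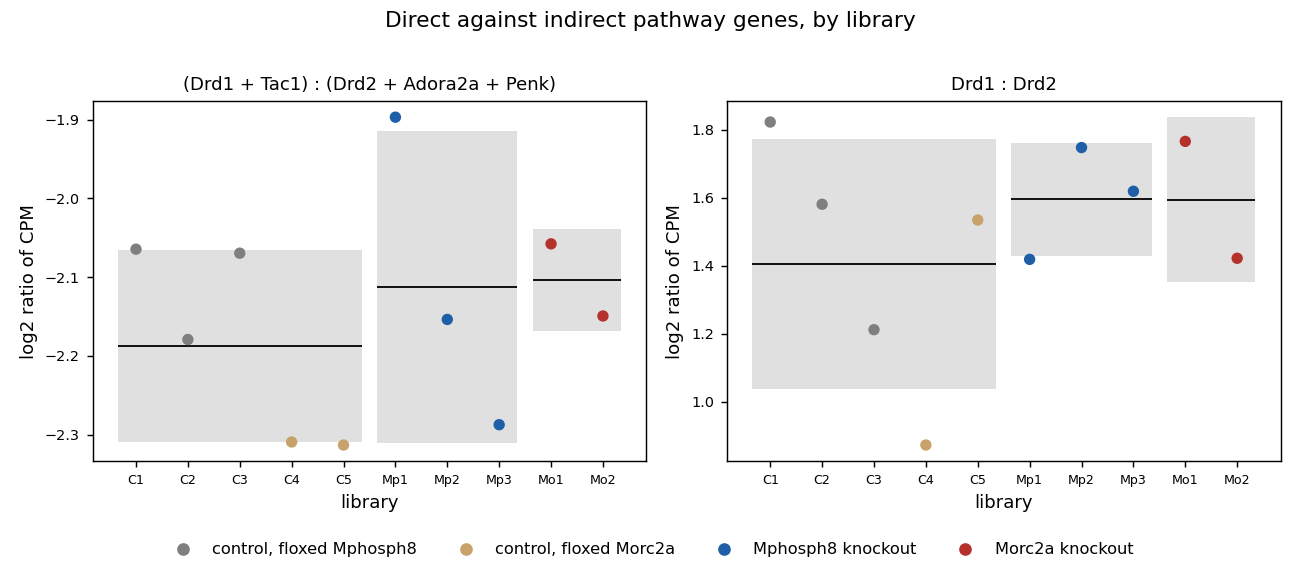
Log2 ratio of CPM of direct to indirect pathway genes (vertical axes, which do not start at 0) in each library (horizontal axes), on the left for summed genes and on the right for Drd1 over Drd2. Points are libraries, black lines group means and grey bands 1 SD; the knockout libraries overlap the controls in both, and the lowest receptor ratio, 0.87, is control replicate 4.

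Ppp1r1b encodes DARPP-32 and lies on chromosome 11 from 98348404 to 98357796 on the plus strand. Its level was 191, 216, 203, 215 and 196 CPM in the controls, 113, 177 and 216 CPM in Mphosph8Δ/Δn and 212 and 173 CPM in Morc2aΔ/Δn. Mphosph8Δ/Δn replicate 1 was far below the others, and replicate 3 of the same genotype was the highest of all 10 libraries. Log2 fold changes were -0.28 ± 0.16 (SE, interval -0.62 to 0.07) in Mphosph8Δ/Δn and -0.08 ± 0.19 (SE, interval -0.48 to 0.31) in Morc2aΔ/Δn. Without Mphosph8Δ/Δn replicate 1 the first value was -0.05. Ppp1r1b shares 15.7% of its exonic bases with the noncoding gene 1700003D09Rik on the opposite strand, which had 0 to 3 counts in each library.

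Rgs9 encodes a regulator of G protein signalling that speeds the end of dopamine receptor signals, and lies on chromosome 11 from 109225355 to 109298129 on the minus strand. It stood at 139, 131, 139.8, 139 and 106 CPM in the controls, at 67.2, 134 and 132 CPM in Mphosph8Δ/Δn and at 138 and 163 CPM in Morc2aΔ/Δn. Again Mphosph8Δ/Δn replicate 1 was the lowest library, at about the same depth as the others, whereas Morc2aΔ/Δn replicate 2, the lowest library for Drd1, Tac1 and Penk, was the highest for Rgs9. Its log2 fold change was -0.24 ± 0.19 (SE, interval -0.63 to 0.16) in Mphosph8Δ/Δn and 0.20 ± 0.21 (SE, interval -0.24 to 0.64) in Morc2aΔ/Δn. Without Mphosph8Δ/Δn replicate 1 it was 0.03 in that knockout.

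Adcy5 encodes the main adenylyl cyclase of the striatum, the enzyme on which these dopamine and adenosine receptors converge, and lies on chromosome 16 from 35154877 to 35305738 on the plus strand. Its level was 469, 409.9, 459, 398 and 406 CPM in the controls, 338, 445 and 468 CPM in Mphosph8Δ/Δn and 517 and 382 CPM in Morc2aΔ/Δn. Mphosph8Δ/Δn replicate 1 and Morc2aΔ/Δn replicate 2 lay below the control range, Morc2aΔ/Δn replicate 1 above it and the other 2 within it. The log2 fold changes of -0.04 ± 0.13 (SE, interval -0.31 to 0.23) and 0.07 ± 0.15 (SE, interval -0.24 to 0.38) were the nearest to 0 in each knockout.

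**Figure D3:**
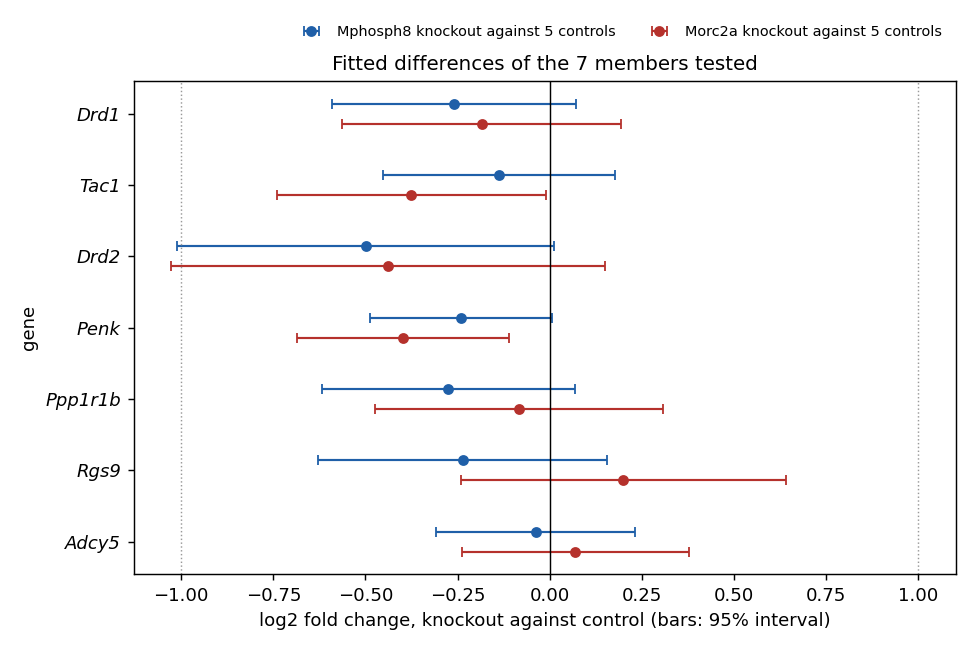
Log2 fold change of the 7 members tested (vertical axis) in Mphosph8Δ/Δn (blue) and Morc2aΔ/Δn (red) against the 5 controls, with 95% intervals; dotted lines mark a fold of 2. All 7 blue points and 5 of 7 red points lie below 0, and the intervals of Penk and Tac1 in Morc2aΔ/Δn alone exclude 0 before adjustment.

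Read together, all 7 members tested had a log2 fold change below 0 in Mphosph8Δ/Δn, with a median of -0.24, where 51.3% of all genes tested did and the median was -0.01. In Morc2aΔ/Δn 5 of 7 members were below 0, with a median of -0.18, where 51.3% of all genes were and the median was -0.01. Genes chosen as markers of 1 cell type can vary together and the same 5 controls serve both knockouts, so neither count stands for independent evidence. Both medians rested in part on 1 library, being -0.16 without Mphosph8Δ/Δn replicate 1 and 0.04 without Morc2aΔ/Δn replicate 2. The counts below 0 moved as well. They were 5 of 7 in Mphosph8Δ/Δn without the first library, and 4 of 8 in Morc2aΔ/Δn without the second, where Adora2a was also fitted. A non-overlap of all 3 Mphosph8Δ/Δn libraries below all controls was seen for 2 of 7 members, Drd2 and Penk, and for 2.26% of all genes. The same for both Morc2aΔ/Δn libraries was seen for 1 of 7, Penk, and for 7.80% of all genes.

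The low libraries were not the same for all members. Mphosph8Δ/Δn replicate 1 was the lowest of the 10 for Ppp1r1b, Rgs9 and Adcy5 but the highest of its group for Tac1 and Drd2. Morc2aΔ/Δn replicate 2 was the lowest for Drd1, Tac1 and Penk. Over the 10 libraries the Pearson correlation of log2 CPM was 0.77 between Penk and Tac1, peptide genes of opposite pathways, 0.77 between Ppp1r1b and Rgs9 and 0.69 between Ppp1r1b and Adcy5, but -0.31 between Tac1 and Rgs9. These are descriptions of 10 libraries that differ in genotype and in regional composition. The 3 libraries rich in granule cell markers include Mphosph8Δ/Δn replicate 1. Without all 3 of them, which leaves 1 Mphosph8Δ/Δn library against 4 controls, the log2 fold changes were -0.41 for Drd1, -0.27 for Tac1, -0.51 for Drd2 and -0.17 for Penk, whereas Ppp1r1b, Rgs9 and Adcy5 stood at 0.09, 0.02 and 0.09. The part of granule cells in the values was not tested beyond this.

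Levels were compared between genes per kilobase of exon. In the controls Penk had 577 ± 50.0 CPM per kilobase (SD, n = 5), followed by Ppp1r1b with 69.7 ± 3.83, Adcy5 with 59.6 ± 4.61, Tac1 with 41.8 ± 5.60, Rgs9 with 20.5 ± 2.22, Drd1 with 19.6 ± 1.13, Drd2 with 10.8 ± 3.19 and Adora2a with 0.132 ± 0.141. The ranges of Ppp1r1b and Adcy5 overlapped, as did those of Rgs9 and Drd1. The other neighbours in this order did not overlap in the 5 controls. On this scale enkephalin mRNA outranked substance P mRNA and the D1 receptor outranked the D2 receptor.

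The controls of the floxed lines were compared with each other, which asks whether the lines differ before Cre. No member was called, against 0.129% of all genes, none had an unadjusted p below 0.05, against 9.21%, and the log2 difference of Morc2afl/fl minus Mphosph8fl/fl controls ranged from -0.25 for Tac1 to 0.37 for Drd2. The Drd2 value was -0.11 without control replicate 4. The difference of the 2 knockout effects, each taken against the controls of its own line, was called for no gene at all, at an unadjusted p below 0.05 for 7.95% of genes and for none of the members. It was largest for Rgs9, at 0.59 ± 0.33 (SE, interval -0.10 to 1.27, edgeR adjusted p = 0.679), Morc2aΔ/Δn being the higher. With the filter on low counts left out, the same test called 85 genes, among them none of the members.

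Other genes of the same neurons were read from a list of 12 that hold signalling proteins and channels of medium spiny neurons of both pathways. None was called in either knockout. In Mphosph8Δ/Δn 12 of 12 had a log2 fold change below 0, with a median of -0.21, and in Morc2aΔ/Δn 9 of 12, with a median of -0.13. Their summed level was 2796 to 3006 CPM in the controls, 2205 to 2590.0 CPM in Mphosph8Δ/Δn and 2666 to 2696 CPM in Morc2aΔ/Δn, with no overlap between the controls and either knockout. Of all single genes tested, 2.26% lay below every control in Mphosph8Δ/Δn and 7.80% in Morc2aΔ/Δn. In Morc2aΔ/Δn the summed markers of neurons in general, striatal interneurons and inhibitory neurons also lay below every control. So did those of midbrain and hindbrain neurons and of oligodendrocytes, so this was not particular to the list. Markers of cortical excitatory neurons, dopamine neurons, cerebellar granule cells, astrocytes, microglia and endothelial cells did not. Without the 3 libraries rich in granule cell markers, 8 of 12 were below 0 in Mphosph8Δ/Δn, with a median of -0.12, and 9 of 12 in Morc2aΔ/Δn, with a median of -0.15.

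Pde10a, the striatal phosphodiesterase that breaks down cyclic AMP and cyclic GMP, had the lowest adjusted p of the list in edgeR's main test in Mphosph8Δ/Δn. It stood at 604, 529, 559, 479 and 582 CPM in the controls, 348, 395 and 400.3 CPM in Mphosph8Δ/Δn and 498 and 428 CPM in Morc2aΔ/Δn. All 3 Mphosph8Δ/Δn libraries were below all controls, including replicate 3, which held few granule cell markers. The log2 fold change was -0.53 ± 0.11 (SE), with an adjusted p of 0.085 by edgeR's test, 0.0014 by DESeq2 and 0.045 by limma-voom, and its fold of under 2 kept it from a call by the last 2 tools. By edgeR without the filter on low counts the adjusted p was 0.029, and without the 3 libraries rich in granule cell markers the log2 fold change was -0.52 with an adjusted p of 0.408. In Morc2aΔ/Δn it was -0.25 ± 0.12 (SE, edgeR adjusted p = 0.495). Actn2, which encodes an actinin of dendritic spines, had a log2 fold change of -0.72 ± 0.19 (SE) in Mphosph8Δ/Δn without being called (adjusted p = 0.395 by edgeR, 0.064 by DESeq2 and 0.426 by limma-voom, but 0.0020 by edgeR without the filter on low counts, at a fold of under 2), at 67.9 to 83.2 CPM against 104 to 178 CPM in the controls. Its controls differed by line, the Mphosph8fl/fl ones at 104 to 107 CPM, and against these alone the value was -0.45. It was -0.88 without the 3 libraries rich in granule cell markers. Pde7b, another cyclic AMP phosphodiesterase gene, had the largest difference of the list in Morc2aΔ/Δn, -0.41 ± 0.30 (SE, edgeR adjusted p = 0.683).

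**Figure D4:**
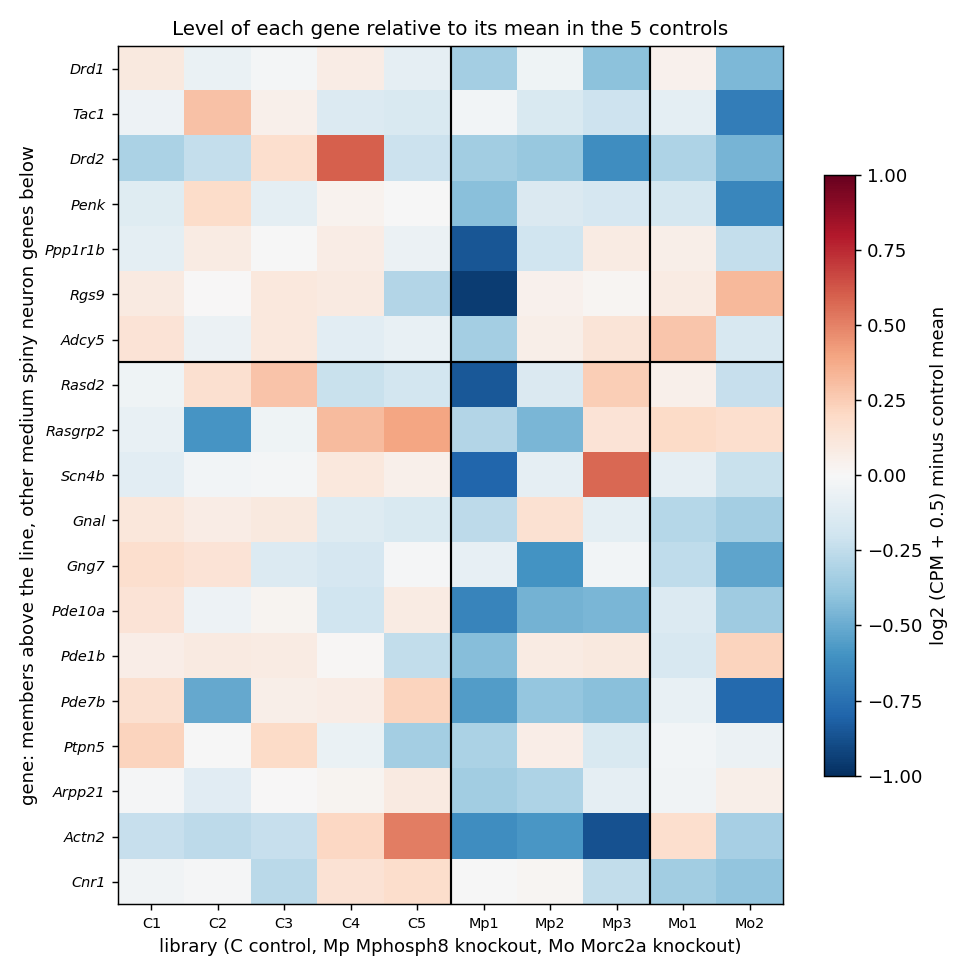
Log2 (CPM + 0.5) of the 7 members tested (above the line) and 12 other medium spiny neuron genes (below it) minus the mean of the 5 controls, with libraries as columns (C, control; Mp, Mphosph8Δ/Δn; Mo, Morc2aΔ/Δn) and colour from blue (lower) to red (higher). Mphosph8Δ/Δn replicate 1 is the darkest blue for Ppp1r1b, Rgs9, Rasd2 and Scn4b, Pde10a is blue in all 3 Mphosph8Δ/Δn libraries, and Tac1 and Penk are bluest in Morc2aΔ/Δn replicate 2.

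The receptors, peptides and signalling genes around the members were taken from 9 lists, the one above included, which together hold 74 genes other than the members, 72 of them tested. None of the 72 was called in either knockout. The lists overlap, so counts by list share genes. Pde10a, Pde7b, Pde1b, Gnal and Gng7 of the list above recur in the cyclic AMP list. An unadjusted p below 0.05 was reached by 11 of 72 in Mphosph8Δ/Δn, against 5.67% of all genes tested, and by 15 of 72 in Morc2aΔ/Δn, against 10.7%. The gene with the largest difference of a list is named from here on among genes with a mean of at least 1 CPM, and larger values of genes below that level are not given. In the cyclic AMP list, 13 of 21 genes were below 0 in Mphosph8Δ/Δn with a median of -0.06, and 14 of 21 in Morc2aΔ/Δn with a median of -0.25. There the largest difference in Morc2aΔ/Δn was that of Prkar1b, a regulatory subunit of protein kinase A, at -0.51 ± 0.15 (SE, edgeR adjusted p = 0.222, DESeq2 adjusted p = 0.045). Against the controls of the same line Prkar1b was at -0.30 (edgeR adjusted p = 0.581), and leaving out each library in turn moved it from -0.74 to -0.31. In the list of kinases and phosphatases around DARPP-32, Arpp19, a phosphatase regulator, stood at -0.33 ± 0.11 (SE, edgeR adjusted p = 0.745) in Mphosph8Δ/Δn and Ppp1cb, a catalytic subunit of protein phosphatase 1, at -0.40 ± 0.18 (SE, edgeR adjusted p = 0.423) in Morc2aΔ/Δn.

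Among the relatives of Rgs9, 7 of 8 were below 0 in Mphosph8Δ/Δn and 4 of 8 in Morc2aΔ/Δn. Rgs4 led in the first at -0.27 ± 0.12 (SE, edgeR adjusted p = 0.876). Rgs7bp, which encodes a membrane anchor for the Rgs9 subfamily, led in the second at -0.59 ± 0.14 (SE, edgeR adjusted p = 0.128, DESeq2 adjusted p = 0.0028), with 117 and 148 CPM against 181 to 226 CPM in the controls. Of the other dopamine and adenosine receptors, 2 of 5 tested were below 0 in Mphosph8Δ/Δn and 3 of 5 in Morc2aΔ/Δn. Drd5, the D5 receptor gene, had the largest differences among those with a mean of at least 1 CPM, 0.63 ± 0.51 (SE) and -1.81 ± 0.68 (SE), at 1.28 to 12.9 CPM, and its edgeR adjusted p was 0.981 and 0.342. The first value was 1.33 without the 3 libraries rich in granule cell markers. Of the peptide genes and their receptors 2 of 8 and 5 of 8 were below 0, and Oprm1, the mu opioid receptor gene, led both lists at 0 to 5.80 CPM with differences of 0.99 ± 0.85 and 1.14 ± 0.95 (SE) that did not pass the test, the first of which became -0.85 without those 3 libraries.

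No further marker of either pathway was called. Of the other direct pathway genes 3 of 4 were below 0 in each knockout, the largest difference being that of Chrm4, at the low level given above, with -1.26 in Mphosph8Δ/Δn and -0.65 there without the same 3 libraries. Pdyn, the prodynorphin gene of direct pathway neurons, was at 64.5 to 88.2 CPM in the controls, 61.1 to 102 CPM in Mphosph8Δ/Δn and 55.1 and 95.2 CPM in Morc2aΔ/Δn, which overlap. Gpr6 of the indirect pathway had log2 fold changes of -0.25 ± 0.26 and -0.43 ± 0.30 (SE) in Mphosph8Δ/Δn and Morc2aΔ/Δn, and was lowest in control replicate 4, the library in which Drd2 was highest. Sp9, a transcription factor gene of indirect pathway neurons, was at 1.75 to 6.00 CPM, with differences of 0.22 ± 0.53 and 0.43 ± 0.59 (SE), the first being 0.78 without the 3 libraries. Of 8 striatal transcription factor genes 6 and 7 were below 0. Six3, at 3.81 to 12.3 CPM, had the largest difference of that list among genes with a mean of at least 1 CPM in Mphosph8Δ/Δn, 0.64 ± 0.36 (SE) and 0.21 without the 3 libraries, and Zfp503, at 0 to 3.12 CPM, the largest in Morc2aΔ/Δn, -0.33 ± 1.25 (SE), and neither passed.

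Over the 10 libraries, the genes whose log2 CPM followed the mean standardised pattern of the members most closely were sought among 12497 other genes with a mean of at least 5 CPM. All 8 members entered that pattern with equal weight, Adora2a with its few reads included. The pattern was highest in control replicate 3 (0.77), the library in which Adora2a had 12 reads, and the share of Adora2a in the ranking was not tested. Among the 10 leading ones were Dynll1 (Pearson r = 0.92), Gpd1l (0.91), Mark2 (0.91), Sgta (0.90), Dck (0.89), Cdc42se2 (0.89), Ephx4 (0.88), Gm7061 (0.88) and Gm37204 (0.87). The points share library and depth, and these values are a description without a test. Of the genes in the pathway lists, Rgs4 ranked 95, Rasd2 ranked 100 and Pde10a ranked 120. The members other than Adora2a, which was below 5 CPM, correlated with the pattern they helped to form at 0.48 for Tac1 to 0.81 for Ppp1r1b.

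Markers of other cells that the sort could hold were read beside these values. No gene of the 11 marker lists was called in either knockout. The summed level of 6 markers of neurons in general was 4204 to 4872 CPM in the controls, 4274 to 4519.5 CPM in Mphosph8Δ/Δn and 3331 to 3927 CPM in Morc2aΔ/Δn, and 9 midbrain and hindbrain markers summed to 148 to 158 CPM, 174 to 194 CPM and 109 to 111 CPM. Markers of striatal interneurons were at 726 to 916 CPM, 807 to 937 CPM and 443 to 682 CPM. Markers of cortical excitatory neurons were at 198 to 255 CPM, 179 to 247 CPM and 223 to 235 CPM, which overlap. Inhibitory neurons in general gave 975 to 1432 CPM, 1085 to 1191 CPM and 899 to 971 CPM, dopamine neurons 119 to 212 CPM, 134 to 184 CPM and 117 to 123 CPM, and astrocytes 496 to 615 CPM, 444 to 503 CPM and 542 to 546 CPM. Morc2aΔ/Δn replicate 2, the lowest library for Drd1, Tac1 and Penk, was also the lowest for the neuronal markers and the interneuron markers, and the part of this in the members' values was not tested. Oligodendrocyte markers were present at 583 to 1037 CPM despite the NeuN gate, and microglial and endothelial markers at 20.8 to 51.6 CPM and 3.61 to 11.6 CPM.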

How the data were processed

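RNA was sequenced from NeuN+ nuclei of whole brains in 10 libraries. Per the labels and the methods, poly(A) RNA was enriched, single reads of 50 bases were trimmed with Trim Galore 0.5.0, reads of abundant sequences were removed with Bowtie2 2.3.4.1, and the rest were aligned to GRCm38 with STAR. The deposited files hold unnormalized read counts per gene, made by the authors with featureCounts of Subread 1.6.2 on Ensembl release 94 genes. The strand setting and the handling of reads that overlap several genes are not given in the sources used here.

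Symbols, positions and exon lengths were joined by Ensembl identifier from GENCODE M21 (54495 of 54532 identifiers matched). Counts were analysed with edgeR 4.0.16 in R 4.3.3. Genes were filtered with filterByExpr on the 3 groups, which kept 18573 genes, libraries were scaled by TMM, and 1 quasi-likelihood model with 3 group means was fitted to all 10 libraries, each knockout being set against all 5 controls. Floxed lines and the difference of the knockout effects were tested in a fit of 4 groups, with the controls split by line. Benjamini-Hochberg adjustment covered every gene of a comparison, and a call needed an adjusted p below 0.05 and a fold above 2. The fits were tested on simulated data. DESeq2 1.42.0, limma-voom (limma 3.58.1) and other alternatives were run. Plots were drawn with matplotlib 3.10.9 (Python 3.11.15).

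The labels do not say that each library is a different mouse, so p-values measure the spread between these libraries. Same-numbered libraries did not deviate together (correlations of residuals of -0.03 to 0.04 over 7 pairs, -0.06 to 0.04 over 24 other pairs), so no block by number was used in the main fits. Some of these same-numbered pairs join libraries of different floxed lines, so the check cannot decide whether libraries pair by litter. The labels do not name litters, and pairing by litter was not tested. The members and the lists of other genes were chosen with earlier results of these data known. The genes named are the 8 members, list genes called in any comparison, the gene with the largest difference of each of 9 pathway lists in each knockout among those with a mean of at least 1 CPM, and the 10 genes most like the members in pattern (log2 of CPM plus 0.5). Gpr6, Pdyn and the ranked pathway genes were also named after their values were seen. Gpr52, a gene of 1 pathway list, matched no identifier, and 1 gene that the rule would name is not reported here. Depth was 6686038 to 10764555 counted reads, and limits of counts cover counting error only. The intervals of fold changes come from edgeR's fit, so they also measure the spread between these libraries.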

Additional observations from a re-analysis of the deposited data

Results flagged for a closer look

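In the 5 controls, values were flagged where the gap between the lowest or highest library and its neighbour took more than 0.71 of the range, which chance does in about 1 group of 20. Rgs9 was flagged for control replicate 5, at 106 CPM against 131 to 139.8 CPM in the other 4. Pde7b was flagged for control replicate 2, at 12.7 CPM, the lowest. The summed markers of striatal interneurons were flagged for control replicate 2, the highest at 916 CPM, and those of cerebellar granule cells for control replicate 4, at 569 CPM. No member was flagged for a difference between the knockouts. Of the 59 sets of control values examined, 4 were flagged.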

How the results depend on the processing

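No member was called under any alternative in any of the 4 comparisons, and of 434 values of single members under alternatives 406 kept the direction of the main value and 28 were reversed. In Mphosph8Δ/Δn, Drd1, Tac1, Drd2 and Penk stayed below 0 throughout. Without the 3 libraries rich in granule cell markers, an alternative chosen after seeing the data, Ppp1r1b (0.089), Rgs9 (0.020), Adcy5 (0.090), Oprm1 (-0.85) and Prkar1b (-0.0036) were reversed in Mphosph8Δ/Δn and 1 gene was called in all. Against the controls of the same floxed line, Prkar1b was -0.10 in Mphosph8Δ/Δn, and Six3 and Zfp503 were -0.13 and 0.17 in Morc2aΔ/Δn, and limma-voom gave 0.032 for Zfp503 in Mphosph8Δ/Δn. With the replicate number as a block, Prkar1b was -0.10 in Mphosph8Δ/Δn, Ppp1r1b was 0.031 and Actn2 0.12 in Morc2aΔ/Δn, and 46 genes were called in Morc2aΔ/Δn against 11 without the block. The residuals gave no sign of pairing by number, and pairing by litter was not tested.

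Calls over all genes moved more. In Mphosph8Δ/Δn they were 18, and 87 without the filter on low counts, 54 by DESeq2 and 10 with same-line controls. In Morc2aΔ/Δn they were 11, and 98 without the filter, 69 by DESeq2 and 6 with both compared groups alone. Without the filter they were 154 for the floxed lines and 85 for the difference of the knockout effects. Leaving out each library in turn gave 6 to 21 calls in Mphosph8Δ/Δn, 3 to 26 in Morc2aΔ/Δn, 11 to 44 between the floxed lines and 0 to 7 for the difference. The cause was not tested.

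Leaving out each library moved the median of the members from -0.30 to -0.16 in Mphosph8Δ/Δn, from -0.45 to 0.038 in Morc2aΔ/Δn, from -0.11 to 0.044 between the floxed lines and from -0.18 to 0.32 for the difference. In Mphosph8Δ/Δn the ranges were -0.39 to 0.026 for Rgs9, -0.13 to 0.096 for Adcy5, -0.12 to 1.02 for Drd5, -0.042 to 0.10 for Prkar1b and -0.20 to 0.52 for Sp9. In Morc2aΔ/Δn they were -0.45 to 0.038 for Drd1, -0.23 to 0.050 for Ppp1r1b, -0.16 to 0.27 for Adcy5, -0.36 to 0.13 for Actn2, -0.034 to 0.23 for Six3 and -1.73 to 0.37 for Zfp503. Between the floxed lines they were -0.095 to 0.071 for Drd1, -0.11 to 0.72 for Drd2, -0.032 to 0.13 for Penk, -0.057 to 0.081 for Ppp1r1b and -0.36 to 0.029 for Rgs9. For the difference they were -0.18 to 0.32 for Drd1, -0.30 to 0.28 for Tac1, -0.67 to 0.15 for Drd2, -0.43 to 0.043 for Penk and -0.057 to 0.38 for Ppp1r1b. The log2 ratios of direct to indirect pathway genes moved by less than 1 SD of the controls under means of single-gene logs and without each library. Plain CPM could not move these ratios, since the scaling of a library cancels within it. The difference of the summed ratio in Mphosph8Δ/Δn moved by more without the 3 libraries rich in granule cell markers, from 0.07 to -0.13. In Morc2aΔ/Δn the mean summed ratio of -2.10 stood against -2.19 in all controls and -2.31 in the Morc2afl/fl controls. Adora2a was removed by the filter on low counts in the main fits. By edgeR without that filter it had imprecise log2 fold changes of -0.58 ± 1.71 (SE) in Mphosph8Δ/Δn and -0.91 ± 2.02 (SE) in Morc2aΔ/Δn. In the main fits the 95% interval of Drd2 reached a fold of about 2 in both knockouts, down to -1.01 in Mphosph8Δ/Δn and -1.03 in Morc2aΔ/Δn.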
